A study of Mus musculus with 6 samples.

Results

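Uhmk1, a protein kinase, and the stathmins Stmn1, Stmn2, Stmn3 and Stmn4 were followed in cells of the embryonic mouse cortex with and without knockdown of Ybx1, an RNA-binding protein that reads 5-methylcytosine in mRNA. The members were chosen by gene symbol, and all 5 were found among the 17920 genes of the deposited table. Uhmk1 is one of the transcripts that the study named as a Ybx1 target, partly from these same libraries, so its fall here is not independent evidence. The labels give 3 WT and 3 KD libraries of mouse brain of embryonic stage E13.5, the columns call the WT libraries Ctrl, and the design text submitted with the series describes cortex with Ybx1 deleted, not a knockdown. By the methods of the study, which calls them neural stem cells, cortical cells of that stage were cultured, infected with a lentivirus carrying a control hairpin RNA (WT) or a hairpin RNA against Ybx1 (KD), and selected with puromycin. Thus both groups carried a lentivirus and had been exposed to puromycin, and WT does not mean untreated tissue. Which of the Ybx1 hairpins these libraries carried, and whether embryos were pooled, is not stated. The series text gives 3 sequencing batches in different biological replicates, without saying that a replicate number is a batch.

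Stathmins are small phosphoproteins that bind tubulin and favour the disassembly of microtubules, and phosphorylation releases them from tubulin. Stmn1, also called Op18, is a cytosolic protein of dividing cells and young neurons. Stmn2 (SCG10), Stmn3 (SCLIP) and Stmn4 (RB3) carry an added amino-terminal stretch that anchors them to membranes, and they are known mainly from neurons and their growth cones. Uhmk1 was first named KIS, for kinase interacting with stathmin. It joins a serine/threonine kinase domain to a U2AF homology motif, a fold also found in splicing factors, and it is known to phosphorylate stathmin and the cell cycle inhibitor p27.

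Library totals lay between 16294635 and 16497505 estimated counts. Ybx1 itself (Entrez Gene 22608) was counted 10189, 9963 and 10484 times in WT replicates 1, 2 and 3 and 1635, 1511 and 2620 times in the same-numbered KD libraries, so every KD library lay far below every WT library. Of the other cell types checked by their markers, microglia (5 genes) summed to between 1.83 and 3.48 TPM and vascular and mesenchymal cells (5 genes) to between 2.82 and 5.14 TPM, against 6626 TPM or more for 15 neuron markers and 3068 TPM or more for 8 radial glia markers. Markers of other lineages were present, with sums of 368 to 610 TPM for GABAergic cells, 270 to 421 TPM for the oligodendrocyte lineage and 50.2 to 61.2 TPM for astrocytes. TPM, a share of all transcripts in the library, divides the counts by transcript length and is used below for levels. CPM, the count scaled to library size by the TMM method, is used for changes. A gene is said to have risen or fallen where the adjusted P of edgeR's quasi-likelihood test was under 0.05.

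Uhmk1 (Entrez Gene 16589) lies on the minus strand of chromosome 1, at chr1:170193420-170215397 of GRCm38. Its longest coding transcript in GENCODE has 8 exons and 7864 bases, of which only 1257 are coding. Ybx1 takes its name from the Y-box, an inverted CCAAT sequence of promoters, so the promoter letters are shown for the members that the RefSeq table (GRCm38.p6) holds, which are Uhmk1 and Stmn3. Each line gives the 250 bases before a start site, read 5′ to 3′ on the gene's own strand, and capitals mark CCAAT or its reverse complement ATTGG.
Uhmk1, chr1:170215408-170215657, minus strand: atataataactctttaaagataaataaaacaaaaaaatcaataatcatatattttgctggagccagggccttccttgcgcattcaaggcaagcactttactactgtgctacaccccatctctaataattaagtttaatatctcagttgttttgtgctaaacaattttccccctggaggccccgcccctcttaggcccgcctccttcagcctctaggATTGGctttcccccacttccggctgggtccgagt
Stmn3, chr2:181314501-181314750, minus strand: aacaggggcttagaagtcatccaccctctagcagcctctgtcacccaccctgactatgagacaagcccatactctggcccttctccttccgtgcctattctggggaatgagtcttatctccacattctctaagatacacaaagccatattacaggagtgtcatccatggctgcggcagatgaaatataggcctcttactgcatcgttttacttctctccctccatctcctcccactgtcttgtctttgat

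The Uhmk1 window held ATTGG once, beginning 34 bases before the start site, as part of the longer GATTGG. It also held CCGCCC, the reverse complement of the GC box GGGCGG, beginning 70 bases before it. Searched on both strands were the Y-box core CCAAT, its extended form CCAATC that overlaps it, the GC box GGGCGG and the TATA box TATAAA. The Stmn3 window held none of them. Nor did the window before another start site of Uhmk1, at chr1:170214735-170214984. Among 32851 windows of the same length, 33.8% held the Y-box core on either strand, 14.6% its extended form, 32.7% the GC box and 12.4% the TATA box. These matches describe letters and say nothing of binding in these cells.

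Uhmk1 was the least abundant of the members and the one that changed most. Its counts were 2903, 2744 and 2552 in the WT libraries, in order of replicate number, and 1500, 1669 and 1692 in the KD libraries. Per length, this came to 46.14, 43.94 and 42.19 TPM in WT and 24.99, 27.94 and 27.44 TPM in KD. The highest KD library thus lay well under the lowest WT library. The mean fell by 41.6% (95% interval of the change from -47.3% to -35.4%), which on the log2 scale is -0.78 (SE 0.06, adjusted P = 3.1e-04). Only 195 of the 13669 genes tested, or 1.43%, had a lower log2 fold change. The spread of Uhmk1 between libraries was 5.17% of the mean in WT and 7.08% in KD, against 1.91% and 2.48% from counting alone.

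Stmn1 (Entrez Gene 16765; chromosome 4, 134468320 to 134473843, plus strand) was by far the most abundant member, and its count ranked 11 among all genes tested in WT. It stood at 5290, 5432 and 5561 TPM in WT, and KD gave 5596, 6150 and 6217 TPM. Unlike the other members it was not lower in KD. On the TPM scale its groups did not overlap, with KD higher, whereas on the CPM scale they did. Genes in general also ran slightly higher in KD in TPM. Their median log2 fold change was 0.046 on log2(TPM + 1), against -0.0013 in the edgeR fit. In CPM, Stmn1 was at 2092 ± 42.4 in WT and 2220 ± 140 in KD (SD, n = 3), or 0.09 on the log2 scale (SE 0.05, adjusted P = 0.256). The 95% interval of the KD to WT ratio ran from 0.979 to 1.15, so the estimates for the other stathmins lay outside it, and a small rise was not told apart from no change.

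Stmn2 (Entrez Gene 20257; chromosome 3, 8509360 to 8561606, plus strand) has the widest locus of the members, spanning 52247 bases. Its TPM values were 1839, 1913 and 1936 in WT and 1583, 1740 and 1829 in KD. The groups lay close together, with KD replicate 3 only just under WT replicate 1. The mean fell by 12.7% (95% interval from -20.6% to -3.91%), on the log2 scale -0.20 (SE 0.06, adjusted P = 0.0466). This call was marginal in the fit that leaves the replicate number out. There the adjusted P was 0.0682, 0.147 and 0.0892 without WT replicate 1, 2 or 3, and 0.102 and 0.113 without KD replicate 1 or 2. Over all alternatives it ranged from 0.00277, with the replicate number as a block, to 0.281, without both replicate 2 libraries.

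Stmn3 (Entrez Gene 20262; chromosome 2, 181306459 to 181314500, minus strand) was at 1253, 1285 and 1202 TPM in WT and at 1022, 1146 and 1101 TPM in KD. All KD libraries were below all WT libraries. It fell to 84.0% of the WT level (95% interval of the change from -23.1% to -8.17%), on the log2 scale -0.25 (SE 0.06, adjusted P = 0.0145). Without WT replicate 2 the adjusted P was 0.0658, with a range of 0.00101 to 0.128 over all alternatives.

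Stmn4 (Entrez Gene 56471; chromosome 14, 66344296 to 66361680, plus strand) was the rarest stathmin and had the tightest libraries. It gave 674, 663 and 668 TPM in WT and 554, 583 and 592 TPM in KD, with a wide gap between the groups. It fell by 17.3% (95% interval from -23.2% to -11.0%), on the log2 scale -0.27 (SE 0.05, adjusted P = 0.00455). The adjusted P ranged from 1.0e-04 to 0.101 over the alternatives, and the call was lost only when both replicate 2 libraries were left out.

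**Figure D1:**
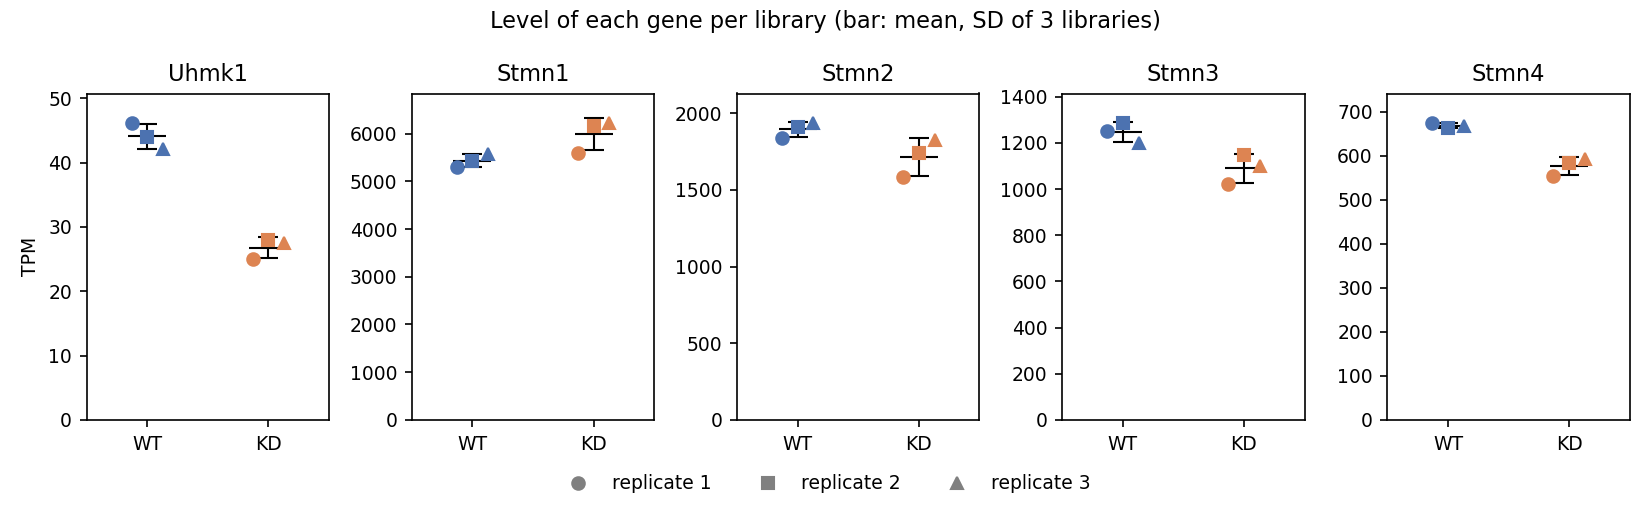
TPM of Uhmk1 and the stathmins (vertical axes, each from 0) in WT and KD libraries, with 1 symbol per replicate number and bars for the mean and SD of 3 libraries. Uhmk1 fell from 44.1 to 26.8 TPM on average, Stmn2, Stmn3 and Stmn4 moved down by less, and Stmn1 lay higher in KD on this scale without passing the test.

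In all, 4 of the 5 members fell and 0 rose, where 11.9% of all genes tested fell, 12% rose (1646 of 13669) and 24.0% did either. Uhmk1, which the study named as a target partly from these same libraries, is among the 4, so the count is not independent. The same 4 members had KD libraries wholly under the WT libraries in CPM, which 20.6% of all genes did. A further 21.0% of all genes had KD libraries wholly above WT, and 41.6% had either. The median size of the log2 fold change over all genes tested was 0.163, not far under the sizes for Stmn2, Stmn3 and Stmn4. There were 5781 genes with a larger change than Stmn2, 4293 with a larger one than Stmn3 and 3812 with a larger one than Stmn4. For Uhmk1 there were 381. The counts of all 5 members were whole numbers in every library, so no fractional assignment of reads to similar genes shows in them. In bulk RNA, fewer cells that express a gene and less of its RNA per cell cannot be told apart.

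Same-numbered libraries were set against each other, since libraries of 1 number deviated together. For Uhmk1 the log2 ratio of KD to WT in CPM was -0.97, -0.73 and -0.63 for replicates 1, 2 and 3. For Stmn2 it was -0.28, -0.22 and -0.09, for Stmn3 -0.36, -0.26 and -0.14, and for Stmn4 -0.36, -0.28 and -0.19. All 12 of these ratios were below 0, as any pairing would give for groups that do not overlap in CPM. For each of the 4 genes the smallest in size was that of replicate 3. Replicate 3 was also the pair in which Ybx1 itself was reduced least, with -2.04 against -2.65 and -2.74 for replicates 1 and 2. Whether the amount of Ybx1 left has a part in these sizes was not tested. For Stmn1 the ratios were 0.02, 0.09 and 0.15, all slightly above 0.

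**Figure D2:**
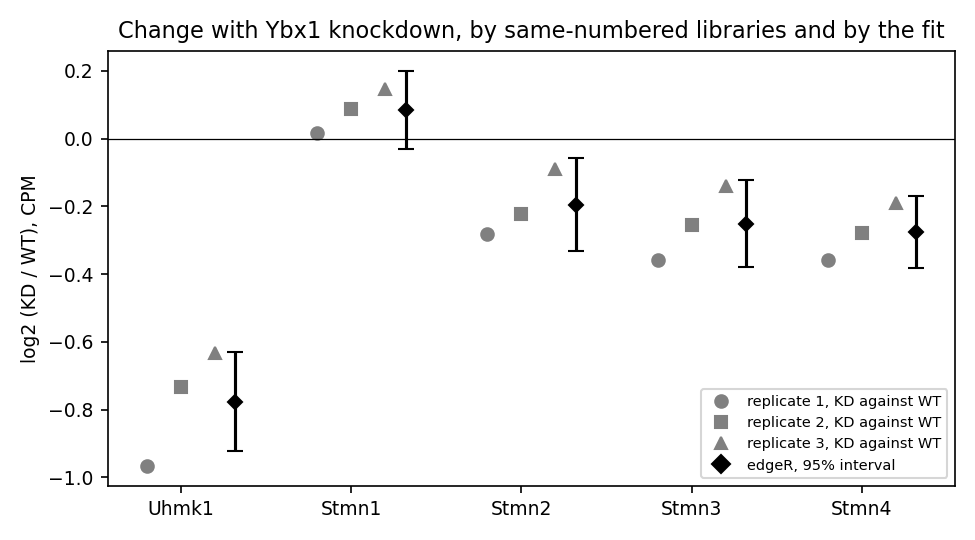
Log2 ratio of KD to WT in CPM (vertical axis) for each member, with grey symbols for the same-numbered libraries and black diamonds for the edgeR estimate with its 95% interval. Uhmk1 stands lowest at -0.78, Stmn2, Stmn3 and Stmn4 lie between -0.27 and -0.20, and only the interval of Stmn1 includes 0.

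To ask whether the stathmins moved as a block, each gene was expressed as a share of their summed TPM, a measure that does not depend on how libraries are scaled. The sum itself differed by less than its spread, at 9239 ± 162 TPM in WT and 9371 ± 537 TPM in KD (SD, n = 3), or 0.924% and 0.937% of all transcripts. Stmn1 made up 58.4%, 58.5% and 59.4% of stathmin transcripts in the WT libraries and 63.9%, 63.9% and 63.8% in the KD libraries. The share of Stmn2 went from 20.5% ± 0.19 to 18.3% ± 0.40, that of Stmn3 from between 12.8% and 13.8% to between 11.3% and 11.9%, and that of Stmn4 from 7.24% ± 0.18 to 6.16% ± 0.15. No WT library overlapped a KD library in any of the 4 shares. The exact two-sided permutation test gave p = 0.1 for each (adjusted 0.1 over the 4), the smallest p that 3 against 3 libraries allow, so none can pass 0.05. The shares of a whole are not independent of each other.

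Within the family the order of levels was Stmn1, Stmn2, Stmn3, Stmn4 in every library, and no neighbours in that order overlapped. Stmn1 was 2.86 ± 0.02 times as abundant as Stmn2 in WT and 3.49 ± 0.08 times in KD, per length. By contrast, Stmn2 was 1.52 ± 0.08 times as abundant as Stmn3 in WT and 1.58 ± 0.08 times in KD, and Stmn3 was 1.87 ± 0.07 times as abundant as Stmn4 in WT and 1.89 ± 0.07 times in KD. The means of the last 2 ratios differed by less than the SD between libraries. In same-numbered libraries Stmn2 per Stmn3 was nonetheless higher in KD in all 3 pairs (1.47 and 1.55, 1.49 and 1.52, and 1.61 and 1.66), whereas Stmn3 per Stmn4 was higher in 2 of the 3.

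Uhmk1 was compared with its substrate family in the same way. Per Uhmk1 transcript there were 196, 211 and 222 stathmin transcripts in WT and 350, 344 and 355 in KD. The ratio was higher in KD in every pair, and its values did not overlap between groups. The log2 ratio of Uhmk1 to the stathmin sum differed by -0.74 between KD and WT (exact two-sided permutation test, p = 0.1, the smallest possible). Because the stathmin sum differed by less than its spread, this ratio mainly restates the fall of Uhmk1. That fall is not independent evidence, since Uhmk1 was named as a target partly from these same libraries. Against Stmn4 alone, the stathmin with the lowest estimate, there were 15.2 ± 0.62 Stmn4 transcripts per Uhmk1 transcript in WT and 21.5 ± 0.65 in KD.

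**Figure D3:**
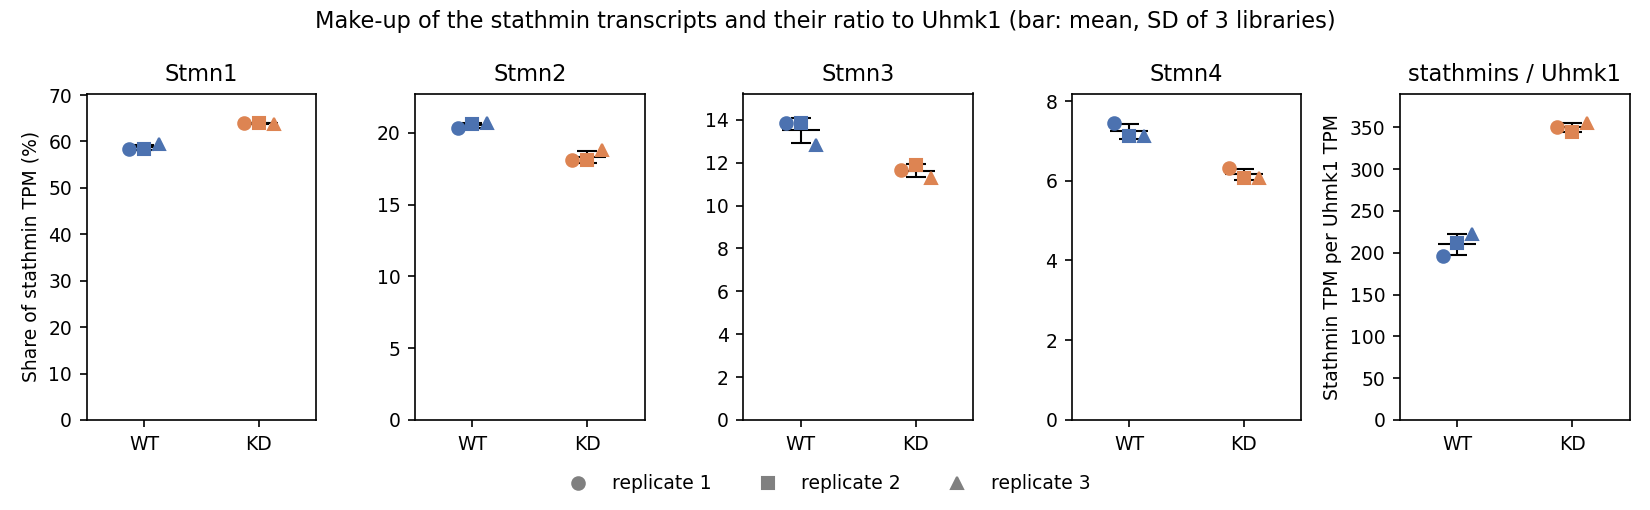
Share of each stathmin in the summed TPM of all 4 (percent, first panels) and stathmin TPM per Uhmk1 TPM (last panel), in WT and KD libraries with the mean and SD of 3 libraries. The Stmn1 share is near 58.7% in WT and 63.9% in KD, the other shares are lower in KD, and the ratio to Uhmk1 goes from 210 to 350.

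Genes known to act with Uhmk1 were examined next. Of 6 substrates and partners, 4 rose and 0 fell, beside 12% of all genes that rose. The median log2 fold change of the 6 was 0.24, against -0.0013 over all genes tested. This list and those that follow were chosen with earlier results of these data known, so their counts are not independent evidence. Cdkn1b, which encodes the Uhmk1 substrate p27, rose from 87.2, 88.6 and 92.1 TPM in WT to 124, 120 and 117 TPM in KD (log2 fold change 0.37, SE 0.05, adjusted P = 0.0012). Pam, an enzyme of neuropeptide amidation that binds Uhmk1, rose by 0.42 on the log2 scale (SE 0.10, adjusted P = 0.0154, and not past 0.05 without KD replicate 2). The splicing factor genes Ptbp2 (0.25, adjusted P = 0.00446) and Sf3b1 (0.24, adjusted P = 0.00687) also rose. No KD library of either overlapped WT in CPM, and 21.0% of all genes likewise lay wholly above. Sf1, a splicing factor that Uhmk1 phosphorylates, was at 143 ± 2.54 TPM in WT and 155 ± 10.5 TPM in KD (0.07, adjusted P = 0.363). Pimreg, a mitotic protein that binds Uhmk1, was at 22.7 ± 4.44 TPM in WT and 26.7 ± 5.36 TPM in KD (0.17, adjusted P = 0.493).

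Stathmins are phosphorylated by many other kinases. Of 16 listed kinase and phosphatase genes, 15 were tested, 3 rose and 2 fell, against 24.0% of all genes that did either, and the median log2 fold change was 0.02. Their share is not far from that of all genes. Mapk13, for the delta form of p38, had at most 4 counts in a library and was not tested. The JNK genes went different ways. Mapk9 (JNK2) rose from 57.9 ± 1.67 to 76.2 ± 0.77 TPM (0.35, SE 0.05, adjusted P = 0.00174), Mapk8 (JNK1) fell from 91.0 ± 2.47 to 81.0 ± 4.55 TPM (-0.22, SE 0.05, adjusted P = 0.0189), and Mapk10 (JNK3) was at 60.7 ± 1.01 and 61.5 ± 3.32 TPM (-0.04, adjusted P = 0.635). The fall of Mapk8 was not called without WT replicate 2 or on log2(TPM + 1). Prkacb, a catalytic subunit of protein kinase A, fell by 0.25 on the log2 scale (adjusted P = 0.0112). Prkaca, its sister gene, was at -0.04 (adjusted P = 0.64).

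The cell cycle kinase genes Cdk2 (0.51, SE 0.12, adjusted P = 0.0158) and Aurkb (0.54, SE 0.16, adjusted P = 0.0421) rose from low levels, 8.68 ± 0.40 and 13.9 ± 2.59 TPM in WT. Cdk2 lost its call without WT replicate 2, and Aurkb with upper quartile scaling and without WT replicate 2 or 3 or any 1 of the KD libraries. Cdk1 (0.45, adjusted P = 0.127) passed only with the replicate number as a block (adjusted P = 0.00111). Camk4 was at 0.31 (adjusted P = 0.131, or 0.00139 with the block), and passed also without WT replicate 3 or KD replicate 1. The kinase genes Mapk3, Camk2a and Pak1 and the protein phosphatase 2A genes Ppp2ca and Ppp2cb had log2 fold changes between -0.01 and 0.07 and did not pass. Markers of dividing cells stood higher in KD, with 6 of 7 past the threshold, where 12% of all genes rose. Their sums were 301 to 344 TPM in WT and 422 to 527 TPM in KD. Some of these markers lost their call without WT replicate 2. The part of dividing cells in the rise of the cell cycle kinases was not tested.

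Other genes for proteins with a U2AF homology motif were compared because Uhmk1 shares this fold. Of 8 tested, 3 rose and 0 fell, where 12% of all genes rose and 11.9% fell, with a median log2 fold change of 0.10. These were U2af1l4, a relative of the small U2AF subunit (0.42, SE 0.09, adjusted P = 0.0139), Rbm39 (0.22, adjusted P = 0.0139) and Rbm17 (0.21, adjusted P = 0.0247), which encode splicing factors. Rbm39 lost its call without KD replicate 2, and Rbm17 without WT replicate 2 or 3 or KD replicate 1 or 2. The U2AF subunit genes U2af1 (0.05, adjusted P = 0.563) and U2af2 (0.06, adjusted P = 0.388) and Puf60 (0.00083, adjusted P = 0.993) did not pass. Zrsr2, a relative of the small U2AF subunit whose counts were fractional, had KD libraries wholly below WT in CPM but did not pass (-0.09, adjusted P = 0.238). U2af2 had them wholly above WT. Over all genes, 20.6% lay wholly below and 21.0% wholly above.

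Of 3 genes known to control Stmn2, only Tardbp rose (0.17, SE 0.04, adjusted P = 0.018), where 12% of all genes did. It encodes TDP-43, which is known to keep a cryptic exon out of the human STMN2 transcript, an exon that is not conserved in mouse. Its counts were fractional, and the call was lost without WT replicate 1, WT replicate 2 or KD replicate 2. Rest, the repressor of neuronal genes that binds near Stmn2, was at 5.31 ± 0.73 and 5.17 ± 0.61 TPM (-0.06, adjusted P = 0.714), and its partner Rcor1 was at -0.08 (adjusted P = 0.511).

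**Figure D4:**
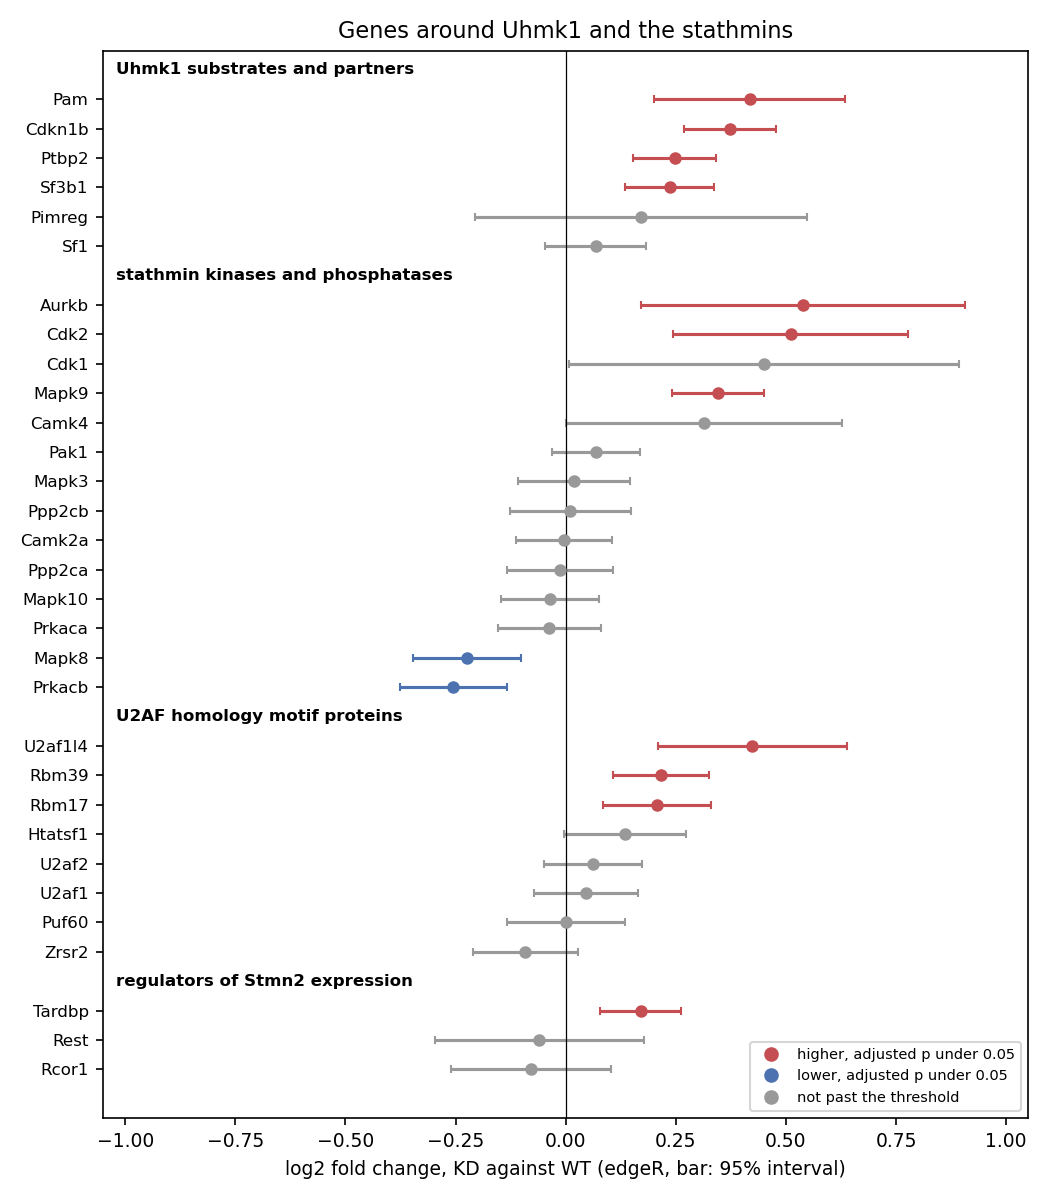
Log2 fold change of KD against WT (horizontal axis, bars for the 95% interval) of genes around Uhmk1 and the stathmins that are named here or belong to the same lists, coloured by call, with 1 gene that did not pass left out. The substrates and partners lie to the right of 0, with 4 of 6 called, and Mapk8 and Prkacb are the 2 genes called lower.

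Because Stmn2, Stmn3 and Stmn4 are neuronal, the 15 neuron markers were set beside them. Of these, 3 rose and 4 fell, where 12% of all genes rose and 11.9% fell, the median log2 fold change was -0.06, and their sum was between 7152 and 7686 TPM in WT and between 6626 and 7323 TPM in KD. None of them was at 0. The most abundant, Tubb3, was at 1798 ± 212 and 1792 ± 181 TPM (log2 fold change -0.06, adjusted P = 0.699), whereas Gap43, of growing axons, fell from 1453 ± 39.1 to 1251 ± 91.0 TPM (-0.27, SE 0.06, adjusted P = 0.0149). Gap43 lost its call without WT or KD replicate 2. The other called markers, named after their values were seen, went both ways. Dcx (0.29), Neurod2 (0.46) and Nefm (0.17) rose, and Ina (-0.60, with fractional counts), Syt1 (-0.36) and Nsg2 (-0.24) fell. Nefm lost its call in 10 of 15 alternatives, Neurod2 without KD replicate 2 and Syt1 without WT replicate 2. The part of neuron number in the stathmin changes was not tested.

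The genes whose profiles over the 6 libraries were most like each member were found from the root mean square difference of centred log2 CPM. For Uhmk1 they were Mblac2 (difference 0.03, log2 fold change -0.79) and Nipsnap3b (0.07, log2 fold change -0.82). For Stmn2 they were Rap1gap2 and Fabp5 and for Stmn3 Slc6a17 and Acot7, while Stk10 was among those for Stmn1 and Nsg1 among those for Stmn4, all with differences of at most 0.02. Among the members, Stmn3 and Stmn4 were the most alike (0.04), and Uhmk1 and Stmn1 the least (0.44). With 6 libraries and 13669 genes, close matches are easily found, and these are descriptions only.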

How the data were processed

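Estimated counts, TPM and FPKM per gene were deposited by the authors in a single table for 6 libraries. Per the labels, total RNA was extracted, and the submitters' processing notes name HISAT2 2.2.1, Bowtie2 2.4.5, RSEM 1.3.1 and the builds GRCm38 and mm10 without their roles. The deposited TPM values are scaled by the authors to transcript length and library, and the FPKM values of the authors served only as an alternative. In each library, between 89.3% and 89.9% of the genes had a whole number as their estimated count. The 6 columns of group averages were not used.

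Rounded counts entered edgeR 4.0.16 (R 4.3.3; TMM, filterByExpr with a minimum count of 10, quasi-likelihood F-test, KD against WT), which kept 13669 genes, with Benjamini-Hochberg adjustment over all of them. SE was obtained from the log2 fold change and the square root of F. Shares and ratios were tested with exact permutation tests. The test was tried on simulated counts with no effect shared by replicate number, so that trial does not bear on the pairing. Members and lists were chosen with earlier results of these data known. Named were the members, Ybx1, Cdkn1b, the called genes of each list (at most 6), the 2 most abundant genes of marker lists where described, and the 2 closest profiles to each member. Genes of the lists that did not pass, and Mapk13, were named to account for the lists, and a few genes that these rules name are not reported here. Motif shares are over RefSeq promoters (GRCm38.p6), with chromosome 18 left out. Gene models are from GENCODE M21.

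Pairing was checked by correlating over genes the deviations from group means. Same-numbered libraries gave 0.32, 0.29 and 0.16, all over 0.1, so the numbers were taken to pair the libraries. Other combinations gave between -0.26 and -0.01. The deviations of a group sum to 0 for each gene, so these negative values are not separate evidence. The series text, which speaks of 3 sequencing batches, does not tie a number to a batch. The edgeR fit and the permutation tests behind the results left this pairing out, and it entered only as an alternative, the replicate block. Replicates within a group differed by more than sampling noise (chi-square between 4.60 and 9.10 per degree of freedom). Alternatives were 3 other scalings, no filter, DESeq2 1.42.0, limma-voom and limma-trend on log2(TPM + 1) with limma 3.58.1, the replicate block, each library left out, and both replicate 2 libraries left out. For shares and ratios they were FPKM, a pseudocount of 1, the block and each library left out.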

Additional observations from a re-analysis of the deposited data

How the results depend on the processing

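Uhmk1 was lower and past the threshold in all 15 alternatives (from -0.81 to -0.70 on the log2 scale), and Stmn1 was higher and not past it in all 15, from 0.05 to 0.14. Stmn2, Stmn3 and Stmn4 kept their direction. Stmn2 was not called with total count scaling (-0.17), without the filter (-0.19), on log2(TPM + 1) (-0.14) or without both replicate 2 libraries (-0.18), and it lay between -0.25 and -0.13 without one library. Stmn3 (-0.25) and Stmn4 (-0.27) were not called without both replicate 2 libraries, where fewer samples enter, and Stmn3 lay between -0.29 and -0.20 without one library. The cause was not tested otherwise. The replicate block changed no call of a member (Stmn2 -0.20, edgeR adjusted P = 0.00277, and Stmn1 0.08, adjusted P = 0.116). With the block more genes were called in general, 2539 higher and 2470 lower, against 1646 and 1631 without it. No share or ratio turned its direction under any alternative run.

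Without both replicate 2 libraries, 0 genes of each of the 4 lists were called by edgeR, where 135 genes were higher and 93 lower over all genes. Without one library, the called genes numbered between 2 and 5 for stathmin kinases, between 3 and 4 for the substrates and partners, between 1 and 3 for the U2AF homology motif and between 0 and 1 for the regulators of Stmn2. Depth did not limit the members, whose counting error was at most 2.48%, whereas 3 libraries per group limit every permutation test to p = 0.1.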

Other observations

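The neuronal stathmins were also set against the neuron markers, a measure chosen after the values were seen and therefore given without a test. Stmn2, Stmn3 and Stmn4 together came to 52.7%, 52.6% and 49.5% of the summed TPM of 15 neuron markers in WT replicates 1, 2 and 3 and to 47.7%, 48.4% and 48.1% in KD replicates 1, 2 and 3. Stmn1 came to 74.0%, 74.0% and 72.4% of that sum in WT and to 84.5%, 85.9% and 84.9% in KD. Neither measure overlapped between the groups.

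Progenitor markers were counted by type, and the lists were not tested against each other. All 4 intermediate progenitor markers rose, where 12% of all genes did, with a median log2 fold change of 1.49. Among them were Insm1, a transcription factor of neurogenesis (15.3 ± 4.20 to 42.4 ± 1.26 TPM), and Btg2, an antiproliferative gene (17.6 to 22.1 TPM in WT and 24.2 to 28.8 TPM in KD). Btg2 lost its call with upper quartile scaling and without WT replicate 1 or 2 or any 1 of the KD libraries. Of 8 radial glia markers 2 rose, 0 fell and 6 did not pass, where 12% of all genes rose and 11.9% fell. The most abundant, Fabp7, was at 2582 ± 186 and 2777 ± 58.9 TPM (log2 fold change 0.04, adjusted P = 0.601). Pax6 and Hes1 were the called ones. Pax6 lost its call without WT replicate 2, and Hes1 in 9 of 15 alternatives. With the replicate number as a block, Sox2 (edgeR adjusted P = 0.0118) and Vim (edgeR adjusted P = 0.0109) passed as well, and Nes, Hes5, Fabp7 and Slc1a3 did not. Of 5 GABAergic markers 1 rose, and of 5 oligodendrocyte lineage markers 1 fell, Olig1, from 208 ± 28.8 to 149 ± 16.2 TPM. Single calls in lists this small do not set them apart from all genes.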
